A study of Mus musculus with 42 samples.

Results

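The 6 costimulatory receptors of the TNF receptor family that T cells carry were followed through sorted T cells of gut and joint: Tnfrsf4 (OX40), Tnfrsf9 (CD137), Tnfrsf18 (GITR), Tnfrsf8 (CD30), Tnfrsf25 (DR3) and Cd27. They were chosen by symbol as a family, by a rule that uses no measured value. The family was proposed with earlier results of these data known, so counts of its members beside shares of all genes are descriptions. Each symbol matched 1 Ensembl identifier, so they are 6 of the 46603 genes of the deposited count table. All 6 passed the filter on low counts in every comparison.

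Receptors of this family lie on the T cell surface and bind trimeric ligands, most of them shown by antigen-presenting cells. The bound receptor gathers TRAF adaptor proteins, which switch on NF-kB and with it genes for survival and division; Tnfrsf25 carries a death domain and also engages the adaptor Tradd. Tnfrsf4, Tnfrsf9 and Tnfrsf8 appear on conventional T cells after antigen contact, Tnfrsf18 and Tnfrsf4 are known as standing features of Treg, and Cd27 is carried by resting T cells and lost on repeated stimulation.

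The mice were TNFdARE animals, which lack the AU-rich element of the Tnf gene and make too much TNF, and WT littermates. Both genotypes carried the DEREG transgene, in which the Foxp3 promoter drives a GFP reporter, so every control is a DEREG mouse as well. GFP-positive regulatory T cells (Treg) and GFP-negative conventional CD4+ T cells (Tconv) were sorted from the ileum, its mesenteric lymph node (mLN), the ankle synovium and the inguinal plus popliteal nodes that drain the joint (jLN). The cells were thus separated by the reporter and not by Foxp3 itself, and the labels give no age, sex or number of animals behind a library. Cell type, site and genotype make 16 groups from 3 independent experiments, in 42 libraries. Most groups hold 3 libraries. There were 2 in TNFdARE mLN Treg, TNFdARE mLN Tconv, TNFdARE synovial Tconv and WT synovial Treg, and 1 in WT synovial Tconv. P-values therefore measure the spread between these libraries.

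Total counts lay between 18261064 and 30301202 reads per library. Genes with a count numbered 29599 in TNFdARE jLN Tconv library B and 31454 in WT jLN Tconv library C. The other libraries held 13341 to 21065, and what set these apart was not tested. Levels are given as CPM, counts scaled by TMM-adjusted library size. Averaged over genotypes, Foxp3 was higher in Treg than in Tconv at every site, but not evenly between genotypes. In Treg it lay between 549.6 and 1663 CPM. In WT Tconv it lay between 6.39 and 30.6 CPM. TNFdARE Tconv held more of it: 22.1 and 36.6 CPM in mLN, 27.7 to 39.7 CPM in jLN, 119 to 201 CPM in ileum, and 604 and 600.0 CPM in synovium. The synovial values lay within the range over all Treg libraries, so Foxp3 did not set these Tconv apart from every Treg library. The libraries labelled TNFdARE synovial Tconv held 44.1% of the Foxp3 level of the matching Treg. Main results that rest on them are given for the WT groups as well. Synovial WT Treg carried fibroblast markers at 8206 and 10653 summed CPM against 873 to 3004 in TNFdARE. The WT synovial Tconv library held CD8 and NK cell markers at 1105 CPM, against 41.02 and 91.4 CPM in TNFdARE. Summed plasma cell markers were 5939 and 2058 CPM in the ileal Treg of experiment A and 134 to 610 CPM in the other ileal Treg libraries. Tnf RNA, followed as a check of the genotype, passed the test only in mLN Treg, 2.25-fold higher in TNFdARE (adjusted p 0.0312, edgeR). Its log2 values were 1.09 in mLN Tconv, 0.74 in ileal Treg and 0.57 in jLN Tconv. They were 0.44 in synovial Treg, 0.41 in jLN Treg and 0.09 in ileal Tconv.

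Of the 6 genes, 5 lie on chromosome 4 of GRCm38 and Cd27 lies on chromosome 6. Tnfrsf4 (chr4:156013843-156016612, plus strand) and Tnfrsf18 (chr4:156026164-156028895, plus strand) are neighbours with 9551 bases between them. Tnfrsf8 spans chr4:145267137-145315164 on the minus strand, Tnfrsf9 chr4:150914562-150946102 and Tnfrsf25 chr4:152115934-152120119 on the plus strand, and Cd27 chr6:125232622-125237010 on the minus strand. Exons of Tnfrsf18 are shared with the antisense gene Gm16008, and since the counting strand is not given in the sources used here, reads of both cannot be told apart there. Gm16008 itself had mean levels of at most 53.5 CPM in any group. Like Tnfrsf18, it was higher in Treg than in Tconv, by log2 values of 2.20 in ileum, 2.07 in mLN and 2.77 in jLN. It was also higher in ileum than mLN, by 3.09 in Treg and 2.98 in Tconv. In synovium against jLN it was higher by 2.37 in Treg and 3.86 in Tconv. The part of shared reads in the Tnfrsf18 values was not tested.

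RefSeq gave 8 start windows for the 6 genes (GRCm38.p6, 250 bases before to 50 after the start), with a second start each for Tnfrsf9 and Tnfrsf25. Windows are printed for the 4 receptors whose levels ran together, so that their sequences can be compared. Capitals mark matches to the kappaB consensus, the site bound by NF-kB, and to AP-1 (TGANTCA), the site bound by Fos and Jun proteins; both strands were searched.
Tnfrsf9, downstream start, chr4:150927749-150928048, plus strand: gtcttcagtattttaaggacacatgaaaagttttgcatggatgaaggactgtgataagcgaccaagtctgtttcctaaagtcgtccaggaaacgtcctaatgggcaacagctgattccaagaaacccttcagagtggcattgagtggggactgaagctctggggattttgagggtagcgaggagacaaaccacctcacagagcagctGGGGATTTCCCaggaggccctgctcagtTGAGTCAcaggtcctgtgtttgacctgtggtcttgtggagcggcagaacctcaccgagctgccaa
Tnfrsf8, chr4:145315115-145315414, minus strand: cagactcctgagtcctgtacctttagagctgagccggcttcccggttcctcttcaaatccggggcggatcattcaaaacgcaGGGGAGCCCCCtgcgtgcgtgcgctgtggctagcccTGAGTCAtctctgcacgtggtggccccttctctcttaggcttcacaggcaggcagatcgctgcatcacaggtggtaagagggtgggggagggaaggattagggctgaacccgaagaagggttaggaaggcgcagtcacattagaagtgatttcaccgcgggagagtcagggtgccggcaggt
Tnfrsf4, chr4:156013445-156013744, plus strand: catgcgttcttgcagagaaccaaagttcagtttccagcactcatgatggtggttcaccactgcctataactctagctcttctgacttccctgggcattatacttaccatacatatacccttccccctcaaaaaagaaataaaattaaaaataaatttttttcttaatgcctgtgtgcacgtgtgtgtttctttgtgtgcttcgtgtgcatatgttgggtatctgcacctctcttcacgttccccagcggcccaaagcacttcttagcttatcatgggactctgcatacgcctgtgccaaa
Tnfrsf18, chr4:156026072-156026371, plus strand: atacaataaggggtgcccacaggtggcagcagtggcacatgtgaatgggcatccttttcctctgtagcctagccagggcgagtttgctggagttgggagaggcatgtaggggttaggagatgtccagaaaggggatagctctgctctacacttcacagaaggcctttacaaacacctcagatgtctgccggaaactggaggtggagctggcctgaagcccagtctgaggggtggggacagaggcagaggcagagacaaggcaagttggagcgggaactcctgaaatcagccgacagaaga
In the Tnfrsf9 window 2 overlapping kappaB matches began 43 and 42 bases before the start and an AP-1 match began 15 bases before it. In the Tnfrsf8 window 2 overlapping kappaB matches began 168 and 167 bases before the start and an AP-1 match 132 bases before it. Neither motif was found in the windows of Tnfrsf4, Tnfrsf18 and Cd27, in the upstream window of Tnfrsf9 or in the first of Tnfrsf25. The second Tnfrsf25 window held 2 kappaB matches. Of all 32851 windows of this length, 8.46% held a kappaB match, 7.81% an AP-1 match and 0.539% both. A match is a stretch of letters and not a measured site, and no binding was assayed.

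Levels over the 16 groups fell into 3 kinds. Tnfrsf4, Tnfrsf9, Tnfrsf18 and Tnfrsf8 were high in Treg and in tissue, Tnfrsf25 was narrow in range, and Cd27 was high in the nodes and low in the synovium. Over the 16 group means of log2 CPM, the first 4 had pairwise Pearson correlations between 0.90 and 0.97, Tnfrsf25 had 0.60 to 0.68 with them, and Cd27 had -0.52 to -0.37 with them. These are descriptions over groups that share experiments, and no p is given. Bulk values cannot tell fewer cells of a type from less RNA per cell.

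Tnfrsf4 had its highest mean in WT ileal Treg, at 1868 ± 463 CPM (SD, n = 3), and its lowest in WT jLN Tconv, at 15.9 ± 2.12 CPM (SD, n = 3), a 117-fold range. The 3 highest groups, WT ileal, TNFdARE synovial and TNFdARE ileal Treg, overlapped with their neighbours in the order. Next came WT synovial Treg with 1203 and 1026 CPM, TNFdARE synovial Tconv with 876 and 789 CPM and TNFdARE ileal Tconv with 597 to 707 CPM, each clear of the next. Node Treg followed between 363 and 549 CPM. Below them lay WT ileal Tconv at 273 to 332 CPM, the WT synovial Tconv library at 108 CPM and all node Tconv at 74.2 CPM or less. Only 4 of the 15 neighbouring pairs overlapped, the fewest of the 6 receptors.

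Tnfrsf9 was set apart by the TNFdARE joint. TNFdARE synovial Treg held 3019, 2924 and 3445 CPM, and no other group reached them. Ileal Treg followed, with 1518 to 1679.8 CPM in TNFdARE and 788 to 1121 CPM in WT. TNFdARE synovial Tconv lay among them at 1232 and 1754 CPM, overlapping TNFdARE ileal Treg. The WT synovial Tconv library, at 24.6 CPM, was the lowest of all 42, just under the WT jLN Tconv at 25.1 to 28.8 CPM. Between these ends, node Treg ranged from 192 to 478 CPM, and 6 of 15 neighbouring pairs overlapped.

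Tnfrsf18 had a narrower range of 13.7-fold between group means, from 659 ± 132 CPM in TNFdARE synovial Treg to 48.0 ± 2.29 CPM in WT jLN Tconv (SD, n = 3 each). The synovial TNFdARE and both ileal Treg groups overlapped at the top, and 7 of 15 neighbouring pairs overlapped. Tnfrsf8 had the widest range, 172-fold, from 84.0, 138 and 95.6 CPM in TNFdARE synovial Treg to 0.529, 0.0951 and 1.23 CPM in WT jLN Tconv. The lowest of these values is 2 reads, and the next are 13 and 25 reads, so its level in WT node Tconv is known only coarsely. For Tnfrsf8, 9 of 15 neighbouring pairs overlapped.

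Tnfrsf25, the receptor for Tnfsf15, spanned only 3.21-fold between group means, from 184 ± 16.8 CPM in WT jLN Treg to 57.2 ± 5.02 CPM in WT ileal Tconv (SD, n = 3 each). With 12 of 15 neighbouring pairs overlapping, its order is mostly unresolved: the 8 highest groups, 7 of Treg and TNFdARE synovial Tconv, form a chain of overlaps above the rest. Cd27, the receptor for Cd70, ran the other way. WT mLN Treg held 446, 466 and 411 CPM and TNFdARE synovial Tconv 58.6 and 69.1 CPM, and the 4 highest groups were WT node groups of both cell types. For Cd27, 10 of 15 neighbouring pairs overlapped.

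**Figure D1:**
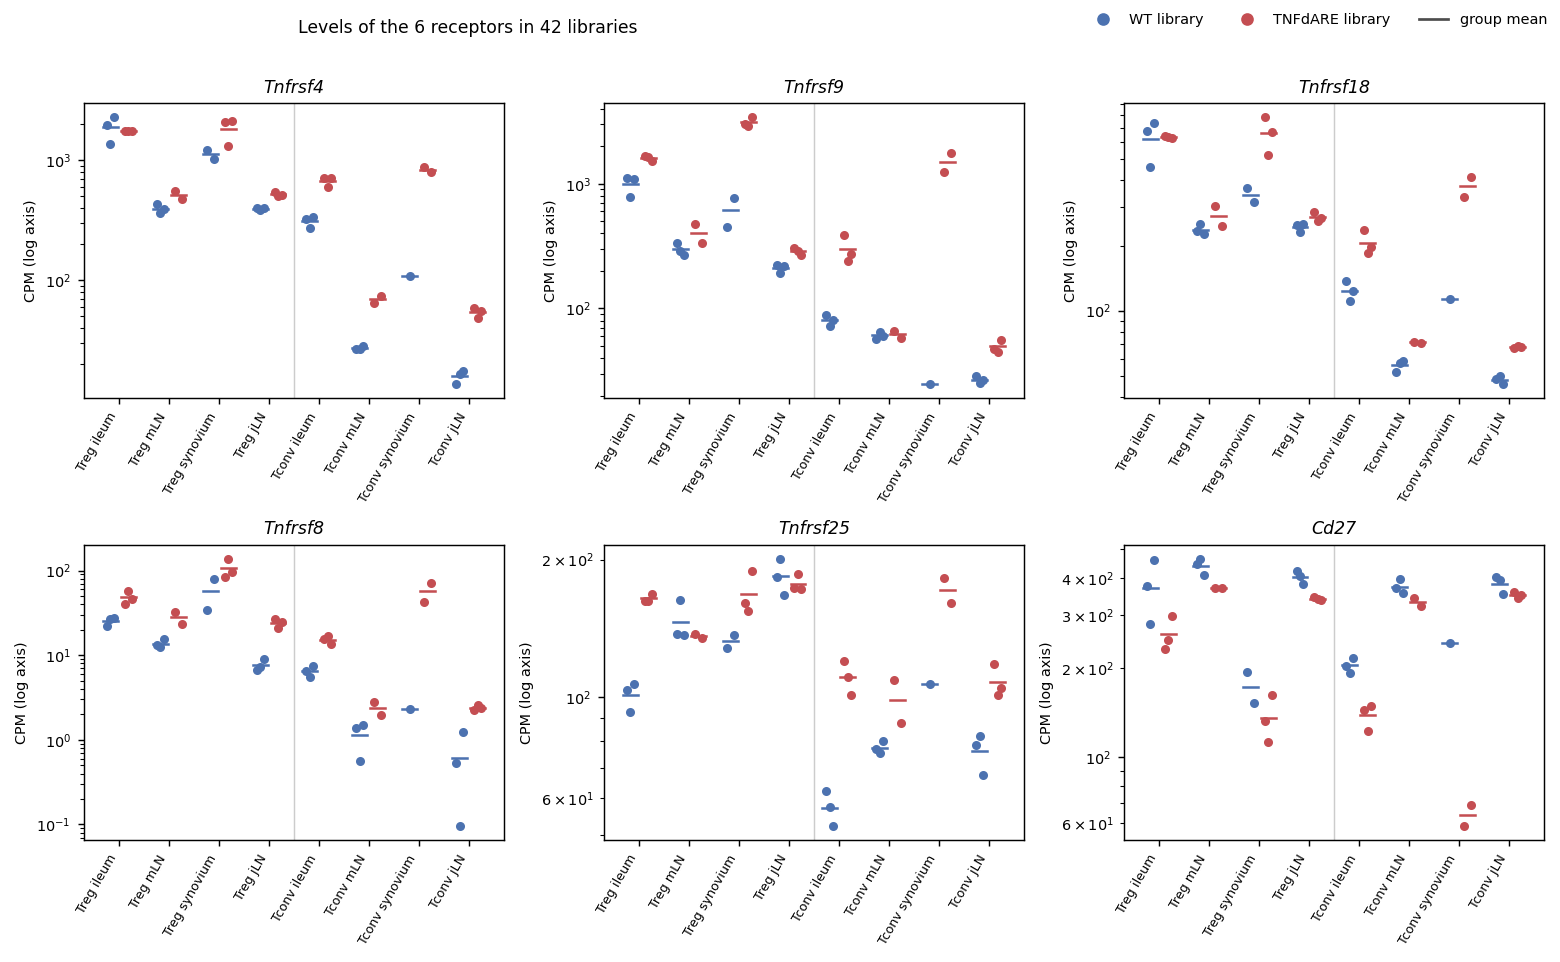
CPM of each receptor (log axis) in every library, by cell type, site and genotype, with a point per library and a line at the group mean. Tnfrsf9 in TNFdARE synovial Treg lies between 2924 and 3445 CPM, above every other group, while Cd27 is lowest in TNFdARE synovial Tconv at 58.6 and 69.1 CPM.

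Per kilobase of exon, which allows genes to be compared, Tnfrsf4 led in all 8 Treg groups, whereas the leader in Tconv depended on the site. In WT jLN Tconv, Cd27 led at 165 CPM per kilobase, ahead of Tnfrsf25 at 33.4, Tnfrsf18 at 31.5, Tnfrsf4 at 11.7, Tnfrsf9 at 9.87 and Tnfrsf8 at 0.178. In WT jLN Treg, Tnfrsf4 led at 289 CPM per kilobase, ahead of Cd27 at 174 and Tnfrsf18 at 160.2. In WT ileal Treg, Tnfrsf4 reached 1369 CPM per kilobase, Tnfrsf18 409 and Tnfrsf9 367. Ileal Tconv of both genotypes and TNFdARE synovial Tconv also had Tnfrsf4 first, in WT ileal Tconv at 226 against 87.6 CPM per kilobase of Cd27. Cd27 led in all node Tconv groups and in the WT synovial Tconv library. Tnfrsf8 was last in all 16 groups. The ranks by mean of the deposited FPKM values were the same in 10 to 16 of 16 groups, depending on the gene. By FPKM, Tnfrsf9 and not Tnfrsf4 led in TNFdARE synovium, at 1758 against 892 in Treg and 1390 against 481 in Tconv.

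The first comparison set Treg against Tconv at each site, averaged over the genotypes. In ileum and mLN all 6 receptors were higher in Treg; 7.93% and 20.8% of all genes tested there were called higher. In jLN 5 of 6 were higher, against 22.1% of genes, and in synovium 4 of 6, against 0.952%.

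Tnfrsf4 had the largest difference in jLN. Its libraries there held 384 to 546 CPM in Treg and 13.5 to 58.1 CPM in Tconv, with no overlap. The difference was 3.94 ± 0.08 on the log2 scale (SE), a 15.4-fold difference with an adjusted p of 5.58e-14 (edgeR quasi-likelihood test). In mLN it was 3.38 ± 0.08, in synovium 2.21 ± 0.23 and in ileum 2.01 ± 0.12. Tnfrsf8 was 11.9-fold higher in mLN Treg and 11.1-fold higher in jLN Treg, but 3.57-fold higher in ileal Treg.

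Tnfrsf9 differed by 2.51 to 3.05 on the log2 scale over the sites when averaged over genotypes. With the WT groups alone it differed by 2.29 in mLN, 2.96 in jLN, 3.66 in ileum and 4.60 in synovium. Tnfrsf18 was 4.00-fold higher in ileal, 4.07-fold higher in mLN and 4.47-fold higher in jLN Treg. Tnfrsf25 was 1.65-fold higher in ileal, 1.63-fold in mLN and 1.98-fold in jLN Treg. Cd27 was 1.87-fold higher in ileal Treg and 1.16-fold in mLN Treg, with adjusted p-values of 0.000479 and 0.0137 (edgeR). The mLN call was lost without TNFdARE Tconv library C, at an adjusted p of 0.0669 (edgeR). In jLN its difference was 0.01 ± 0.04 on the log2 scale, with an adjusted p of 0.905.

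With the WT groups alone, the counts were 6 in ileum, 6 in mLN and 5 in jLN as before. In the synovium the calls rested on few libraries. Tnfrsf4 and Tnfrsf9 were higher by 3.33 ± 0.38 and 4.60 ± 0.49 with the WT groups alone, where the Tconv group is 1 library, assumed to vary like the replicated groups of the same fit. With the TNFdARE groups alone, where Tconv hold much Foxp3, they were higher by 1.10 ± 0.25 and 1.03 ± 0.29, and no receptor passed. Tnfrsf18 and Tnfrsf8 passed at adjusted p-values of 0.0453 and 0.0420 (edgeR), and with the experiment as a replicate block these were 0.196 and 0.0611. Leaving out single libraries lost Tnfrsf18 in 5 and Tnfrsf8 in 5 of 7 fits, with adjusted p-values up to 0.136.

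**Figure D2:**
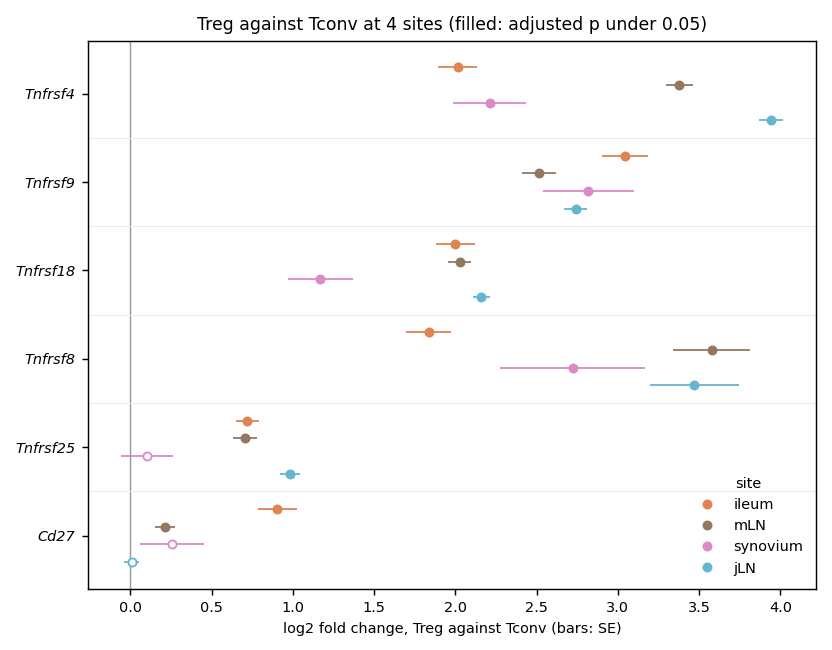
Log2 fold change of Treg against Tconv at each site, averaged over genotypes, with SE as bars and filled points for an adjusted p under 0.05. Tnfrsf4 ranges from 2.01 in ileum to 3.94 in jLN, and Tnfrsf9 from 2.51 to 3.05.

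The differences between Treg and Tconv were themselves compared between a tissue and its node. The gap was smaller in ileum than in mLN for Tnfrsf4, with a value of -1.37 ± 0.14 on the log2 scale, and for Tnfrsf8, with -1.75 ± 0.28, and larger for Cd27, with 0.69 ± 0.14. Adjusted p-values were 6.09e-06, 0.000516 and 0.00432 (edgeR), and 3 of 6 receptors passed where 6.25% of all genes did. Between synovium and jLN it was smaller in the synovium for Tnfrsf4 (-1.74 ± 0.19), for Tnfrsf18 (-0.997 ± 0.15) and for Tnfrsf25 (-0.89 ± 0.13). These 3 compare with 3.57% of all genes called lower.

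With the WT groups alone the Tnfrsf4 values were -1.27 ± 0.19 for the gut and -1.30 ± 0.29 for the joint, both past the test. Cd27 in the gut then missed it, at 0.61 ± 0.19 with an adjusted p of 0.0912, and so did Tnfrsf18 in the joint, at -0.78 ± 0.24 with 0.0662 (edgeR). Tnfrsf9 passed in the gut and in the joint with the WT groups alone, at 1.32 ± 0.24 and 1.64 ± 0.33, where the values averaged over genotypes were 0.53 ± 0.18 and 0.07 ± 0.21. With the TNFdARE groups alone its joint value was -1.50 ± 0.26. The WT joint values rest on 1 synovial Tconv library, the one with CD8 and NK cell markers at 1105 CPM, whose part was not tested.

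Tissue was then compared with its draining node within a cell type. Averaged over genotypes, in both cell types and at both sites, Tnfrsf4, Tnfrsf9, Tnfrsf18 and Tnfrsf8 were higher in the tissue and Cd27 was higher in the node. In ileal Treg 5 of 6 receptors passed the test, against 29.2% of all genes tested, and in synovial Treg 6 of 6, against 37.7%. In ileal Tconv 5 of 6 passed, where 61% of all genes did, and in synovial Tconv 6 of 6, where 34.8% did. With the WT groups alone 6 of 6 passed in ileal Tconv and 4 of 6 in synovial Tconv, where Tnfrsf9 and Tnfrsf8 were lost and WT is 1 library.

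Tnfrsf4 rose most from node to tissue in Tconv. WT ileal Tconv held 320.4, 273 and 332 CPM and WT mLN Tconv 26.7, 26.8 and 28.4 CPM, with no overlap. Averaged over genotypes, Tnfrsf4 was 10.5-fold higher in ileal than in mLN Tconv and 10.4-fold higher in synovial than in jLN Tconv. In Treg the folds were 4.06 and 3.19. The synovial Tconv value was 2.77 ± 0.15 on the log2 scale in the WT groups and 3.99 ± 0.14 in the TNFdARE groups. For Tnfrsf8 the ileal rise was 6.04-fold in Tconv and 1.79-fold in Treg, and the synovial rise 9.55-fold in Tconv and 5.78-fold in Treg. In synovial Tconv the WT groups alone gave 1.91 ± 0.75 for Tnfrsf8 on the log2 scale, with an adjusted p of 0.107 (edgeR), and the TNFdARE groups alone 4.61 ± 0.57.

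Tnfrsf9 rose 3.67-fold in ileal and 5.72-fold in synovial Treg. In ileal Tconv it was 2.56-fold higher over both genotypes, and by 0.42 on the log2 scale with the WT groups alone, at an adjusted p of 0.0417 (edgeR). In synovial Tconv it was 5.34-fold higher over both genotypes. The TNFdARE groups alone gave 4.95 ± 0.17 on the log2 scale, and the WT groups alone gave -0.12 ± 0.21, with an adjusted p of 0.679 (edgeR). The WT value compares 1 synovial library at 24.6 CPM with 3 jLN libraries at 25.1 to 28.8 CPM.

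Tnfrsf18 rose 2.47-fold in ileal Treg, 2.54-fold in ileal Tconv, 1.87-fold in synovial Treg and 3.66-fold in synovial Tconv, where the WT groups gave 1.25 ± 0.13 and the TNFdARE groups 2.50 ± 0.11 on the log2 scale. Cd27 fell by 1.26 ± 0.11 on the log2 scale in synovial Treg, by 1.53 ± 0.09 in synovial Tconv and by 1.06 ± 0.07 in ileal Tconv. In synovial Tconv its value was -0.64 ± 0.13 in the WT groups and -2.42 ± 0.11 in the TNFdARE groups. In ileal Treg its value was -0.38 ± 0.12 with an adjusted p of 0.0455 (edgeR), and with the experiment as a replicate block the adjusted p was 0.0596. Without both experiment A ileal Treg libraries it was 0.119, and it was lost in 9 of 11 fits that left out 1 library, with adjusted p-values of 0.0515 to 0.137. Tnfrsf25 showed no called difference in the gut, with -0.12 ± 0.07 in Treg and -0.12 ± 0.08 in Tconv, though in Tconv of the WT groups alone it was lower, at -0.42 ± 0.10 with an adjusted p of 0.00566 (edgeR). In the joint it was 1.52-fold higher in synovial Tconv and lower in synovial Treg, with -0.25 ± 0.08 and an adjusted p of 0.0393, which became 0.0714 with the replicate block and was lost in 8 of 11 fits without 1 library, with 0.0594 to 0.0931 (edgeR).

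All genes together moved by a median of -0.29 on the log2 scale in the comparison of synovial with jLN Tconv. All 6 receptors moved by more than that, Cd27 in the same direction and the other 5 in the opposite one.

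**Figure D3:**
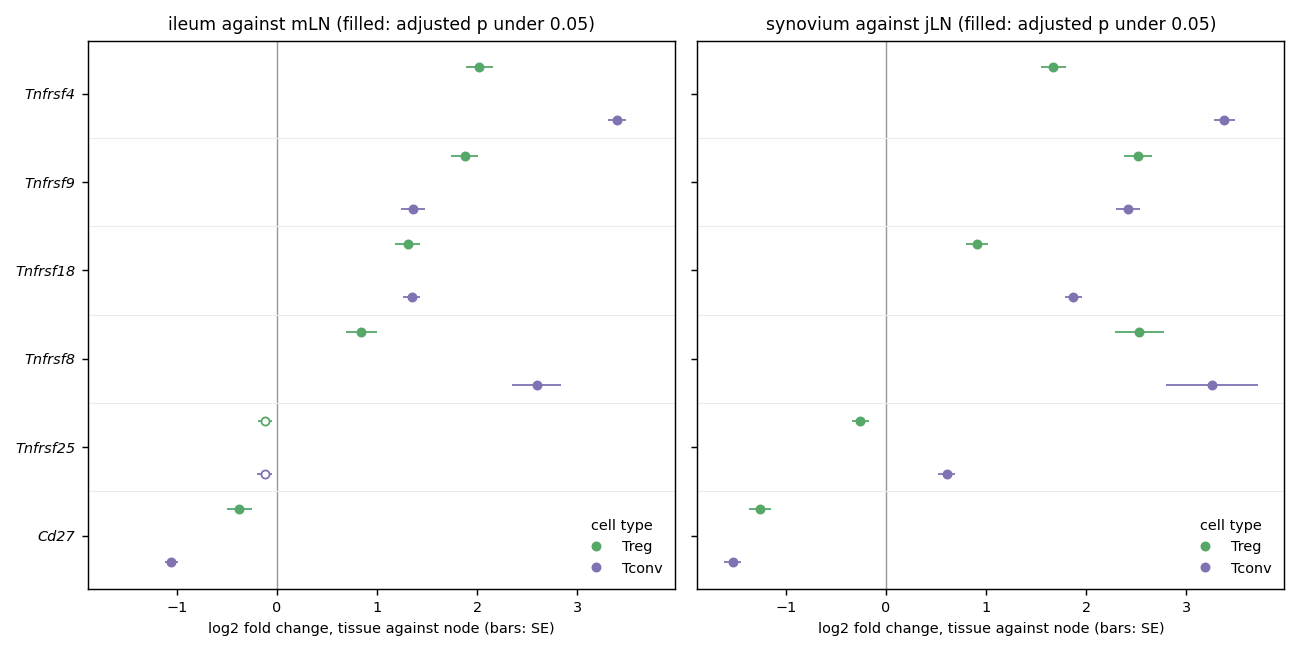
Log2 fold change of tissue against draining node in Treg and Tconv, averaged over genotypes, with SE as bars and filled points for an adjusted p under 0.05. Tnfrsf4 is farthest right in Tconv, at 3.40 for ileum and 3.38 for synovium, and Cd27 lies left of 0 in all 4 comparisons.

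The effect of the TNFdARE allele was called for more receptors in Tconv than in Treg of the same site in ileum and jLN. In jLN Tconv 5 of 6 receptors rose, where 2.29% of all genes were called higher. In ileal Tconv 4 of 6 rose, against 1.17%, and in mLN Tconv Tnfrsf4 alone did, against 1.79%. Cd27 did not pass in Tconv at any of these sites.

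Tnfrsf4 rose at all 3 sites. In jLN Tconv it went from 13.5, 16.7 and 17.6 CPM in WT to 58.1, 48.3 and 55.1 CPM in TNFdARE, with no overlap. The change was 1.75 ± 0.10 on the log2 scale, or 3.37-fold, with an adjusted p of 1.43e-07 (edgeR). In mLN Tconv it went from 26.7, 26.8 and 28.4 CPM to 64.6 and 74.2 CPM, which is 1.34 ± 0.11 with an adjusted p of 6.27e-05 (edgeR). In ileal Tconv it went from 320.4, 273 and 332 CPM to 707, 597 and 702 CPM, which is 1.12 ± 0.17 with an adjusted p of 0.00691 (edgeR). These 3 calls kept their side of the threshold when any library was left out.

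Tnfrsf9 rose most in the ileum. Its WT ileal Tconv libraries held 89.1, 72.7 and 80.8 CPM and the TNFdARE libraries 392, 239 and 275 CPM. The change was 3.74-fold with an adjusted p of 0.000657 (edgeR). In jLN Tconv it rose 1.84-fold, with 25.1 to 28.8 CPM in WT and 44.9 to 56.1 CPM in TNFdARE. In mLN Tconv the groups overlapped, with 57.2 to 65.2 CPM in WT and 58.3 and 65.6 CPM in TNFdARE, a difference of 0.01 ± 0.14.

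Tnfrsf25 rose 1.93-fold in ileal Tconv, from 62.2, 57.4 and 52.1 CPM to 119.9, 111 and 101 CPM, and 1.42-fold in jLN Tconv. Tnfrsf18 rose 1.42-fold in jLN Tconv, where WT held 45.6 to 50.2 CPM and TNFdARE 67.1 to 69.1 CPM. In ileal Tconv Tnfrsf18 was 0.74 ± 0.17 higher at an adjusted p of 0.0631, which became 0.0210 with the experiment as a replicate block (edgeR). The block also brought Cd27 in ileal Tconv past the test, at -0.55 with an adjusted p of 0.0495 (edgeR).

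Tnfrsf8 rose 2.38-fold in ileal Tconv, from 6.50, 5.46 and 7.36 CPM to 15.7, 16.7 and 13.5 CPM. In jLN Tconv it was called at 1.96 ± 0.44, between 0.529, 0.0951 and 1.23 CPM in WT and 2.26, 2.58 and 2.37 CPM in TNFdARE. Adjusted p-values were 0.00811 in ileum and 0.0246 in jLN (edgeR), and both calls were lost in some alternatives. In 1 fit of all 42 libraries the ileal value was 1.24 with an adjusted p of 0.179 (edgeR). Over all 12 alternatives the jLN value lay between 1.47 and 2.89. Without WT library A the jLN value was 1.85 with an adjusted p of 0.123 (edgeR). Without any 1 of the TNFdARE jLN Tconv libraries it lay between 0.0633 and 0.0675, and without WT library A or B or TNFdARE library B of ileal Tconv the ileal value lay between 0.0503 and 0.0549.

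In synovial Tconv the genotypes were not tested, since WT has 1 library there. Its values against those of TNFdARE were 108 against 876 and 789 CPM for Tnfrsf4, and 24.6 against 1232 and 1754 CPM for Tnfrsf9. Tnfrsf8 had 2.301 against 43.0 and 71.5 CPM. Cd27 went the other way, with 243 against 58.6 and 69.1 CPM. CD8 and NK cell markers also moved with genotype in these libraries, at 1105 CPM in the WT library, and their part in these values was not tested.

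**Figure D4:**
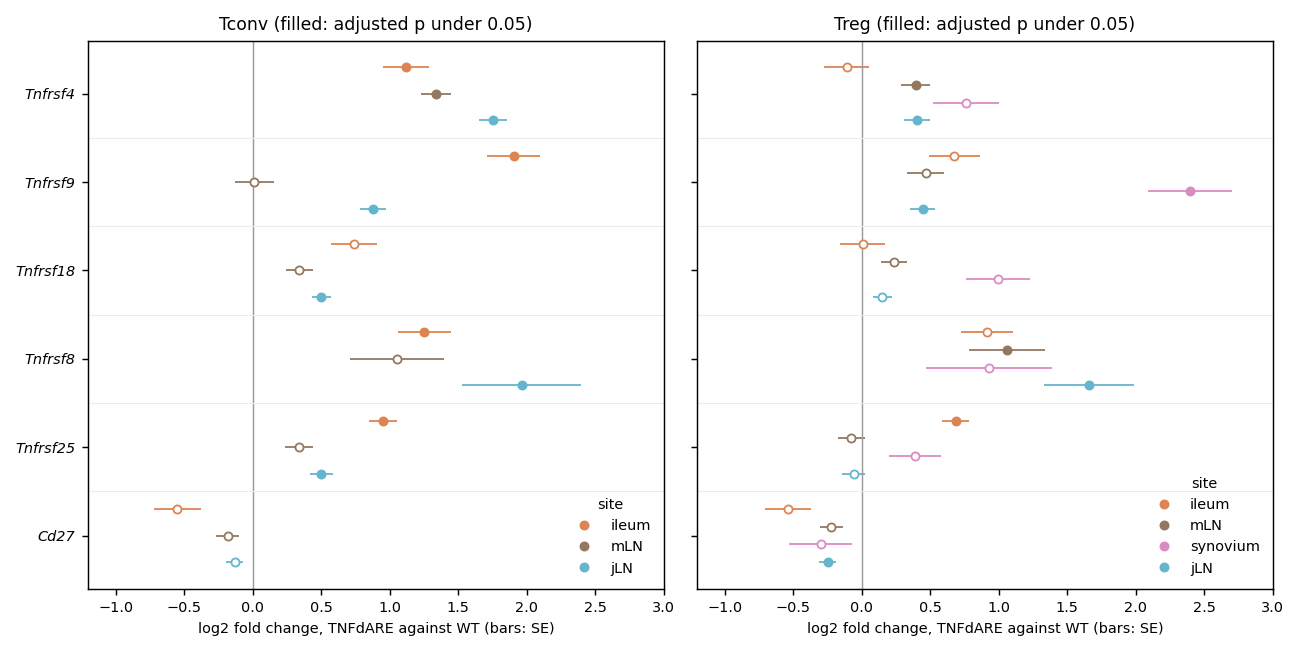
Log2 fold change of TNFdARE against WT in Tconv (left) and Treg (right) at each site, with SE as bars and filled points for an adjusted p under 0.05. Tnfrsf4 is filled at all 3 sites in Tconv, from 1.12 to 1.75, and Tnfrsf9 in synovial Treg stands farthest right at 2.39.

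Foxp3 rose in the same Tconv libraries, by 3.18 ± 0.22 on the log2 scale in ileum, 2.10 ± 0.17 in mLN and 2.37 ± 0.11 in jLN. Of 5 Treg marker genes (Foxp3, Lrrc32, Il2ra, Ikzf2 and Ctla4), 3 rose with the allele in ileal Tconv and 5 in mLN and in jLN Tconv. Of all genes, 1.17%, 1.79% and 2.29% were called higher there. Their summed level in jLN Tconv was 32.6 to 35.9 CPM in WT and 91.4 to 129.8 CPM in TNFdARE, against 3199 to 3710.4 CPM in jLN Treg. Levels in Tconv were therefore set against the mean level in Treg of the same site and genotype. In jLN, Foxp3 in Tconv was 0.584% of its Treg level in WT and 3.03% in TNFdARE, a gain of 2.45 percentage points. Tnfrsf4 went from 4.04% to 10.3%, a gain of 6.27 points, Tnfrsf9 from 12.8% to 17.3% and Tnfrsf25 from 41.4% to 60.9%. Tnfrsf8, from 8.04% to 9.92%, gained 1.88 points.

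In mLN the gain was 1.88 points for Foxp3, 7.38 for Ikzf2 and 6.68 for Tnfrsf4, while Tnfrsf9 went from 20.5% to 15.3%. In ileum it was 8.13 points for Foxp3, 21.7 for Tnfrsf4, 12.6 for Tnfrsf18, 10.6 for Tnfrsf9, 10.6 for Tnfrsf25 and 6.30 for Tnfrsf8. Other Treg markers also gained in the ileum, from 6.07 points for Il2ra to 33.8 points for Ctla4, which activated Tconv express as well. In the synovium Foxp3 gained 40.6 points and the first 4 receptors 24.1 to 49.99 points. The gain of Tnfrsf4 was larger than that of Foxp3 in ileum and both nodes and smaller in the synovium. It was smaller than that of Ikzf2 in mLN and of Ctla4 in ileum, and larger than that of each marker in jLN. Treg levels, which these percentages are taken of, also differed between genotypes. The part of Foxp3-bearing cells in these changes was not tested.

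**Figure D5:**
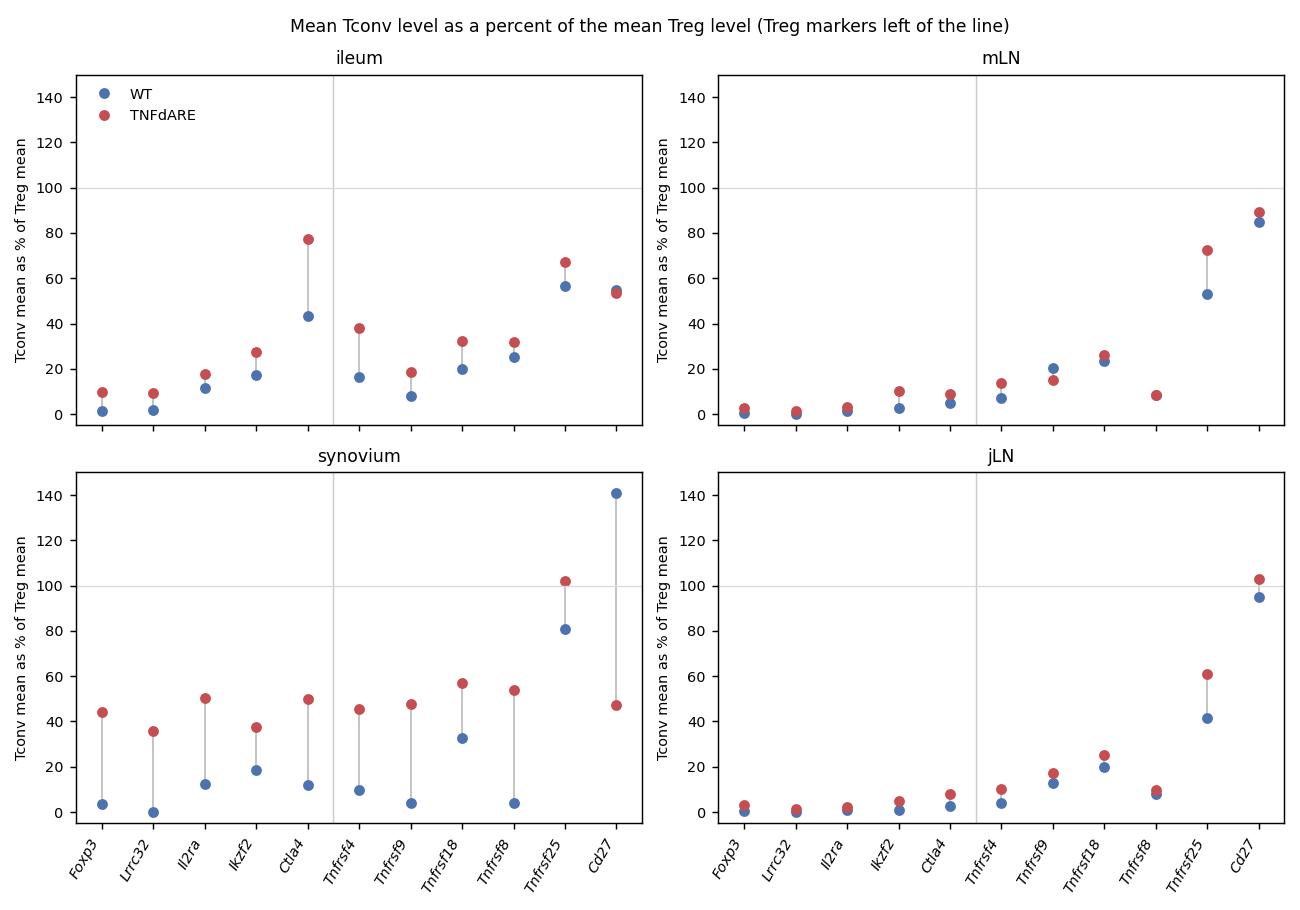
Mean Tconv level as a percent of the mean Treg level of the same site and genotype, for 5 Treg marker genes (left of the line) and the 6 receptors, in WT and TNFdARE. In jLN, Foxp3 goes from 0.584% to 3.03%, Ctla4 from 2.63% to 7.83% and Tnfrsf4 from 4.04% to 10.3%. In the synovium all TNFdARE points but Tnfrsf25, at 102%, lie between 35.6% and 56.9%.

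In jLN Treg 4 of 6 passed, where 5.7% of all genes did in either direction, with Tnfrsf8, Tnfrsf9 and Tnfrsf4 higher and Cd27 lower. In mLN Treg 2 of 6 rose, Tnfrsf8 and Tnfrsf4, against 3.84% of genes called higher. In ileal Treg Tnfrsf25 alone rose, against 0.484%, and in synovial Treg Tnfrsf9 alone, against 0.111%.

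Tnfrsf9 in synovial Treg was the largest genotype difference among those tested. WT libraries held 450.0 and 773 CPM and TNFdARE libraries 3019, 2924 and 3445 CPM, which do not overlap. The median over all genes there was 0.12. The change of Tnfrsf9 was 2.39 ± 0.31 on the log2 scale, 5.26-fold, with an adjusted p of 0.04995 (edgeR), just under the threshold. With the experiment as a replicate block it was 2.39 with an adjusted p of 0.470, and leaving out 1 library gave 2.04 to 2.85, past the test only without WT library B and lost without each of the other 4, with adjusted p-values of 0.107 to 0.161. The fibroblast markers named above were 8206 and 10653 CPM in the WT libraries against 873 to 3004 CPM, and their part was not tested. Tnfrsf18 was 1.99-fold and Tnfrsf4 1.69-fold higher there, with adjusted p-values of 0.217 and 0.378 (edgeR).

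Tnfrsf8 was 3.15-fold higher in TNFdARE jLN Treg, with 26.98, 21.1 and 24.6 CPM against 6.72, 7.20 and 9.08 CPM, and an adjusted p of 0.00797 (edgeR). In mLN Treg it was 2.09-fold higher, with 32.7 and 23.6 CPM against 13.04, 12.4 and 15.6 CPM, and an adjusted p of 0.0467. In ileal Treg the libraries did not overlap either, at 40.1 to 58.1 CPM against 22.3 to 27.3 CPM, but the adjusted p was 0.0640 (edgeR). The TNFdARE libraries were thus above all WT libraries at these 3 sites.

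Tnfrsf4 rose 1.32-fold in jLN Treg, from 398, 384 and 400.2 CPM to 546, 504 and 515 CPM, and 1.31-fold in mLN Treg. In ileal Treg its groups overlapped, with 1372 to 2290.2 CPM in WT and 1746 to 1757 CPM in TNFdARE, a difference of -0.11 ± 0.17. Tnfrsf9 rose 1.36-fold in jLN Treg. Tnfrsf25 rose 1.61-fold in ileal Treg, from 104, 93.0 and 107 CPM to 163, 163 and 168 CPM, with an adjusted p of 0.0114. Cd27 fell by 0.25 ± 0.06 in jLN Treg, with 384 to 423 CPM in WT and 337 to 346 CPM in TNFdARE, with an adjusted p of 0.0322 (edgeR).

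Several of these Treg calls depended on a library or the replicate block. Without both experiment A libraries, Tnfrsf25 in ileal Treg was 0.72 ± 0.13 with an adjusted p of 0.0686 (edgeR). Without WT library A or TNFdARE library B its adjusted p was 0.0503 and 0.0547 (edgeR). In mLN Treg Tnfrsf8 was lost without any 1 of the 5 libraries, with adjusted p-values of 0.0684 to 0.369, and Tnfrsf4 without any but WT library A, with 0.0550 to 0.376. With the block, Tnfrsf9 passed as well in mLN Treg, at 0.48 with an adjusted p of 0.0370, and in ileal Treg, at 0.69 with 0.0378 (edgeR). In jLN Treg Tnfrsf8 and Tnfrsf9 were lost without TNFdARE library A or WT library B, and Tnfrsf4 and Cd27 without 5 of the 6 libraries each.

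The genotype effect was compared between the cell types with an interaction term. Tnfrsf4 passed in both nodes, with a smaller effect in Treg than in Tconv: -1.35 ± 0.14 on the log2 scale in jLN and -0.94 ± 0.15 in mLN, with adjusted p-values of 0.000256 and 0.0344 (edgeR). It was the only 1 of 6 receptors in either node, where 0.381% and 0.135% of all genes were called lower. The jLN result kept its call without any library, and the mLN result lost it without 8 of 10 libraries, at adjusted p-values of 0.0509 to 0.118. Foxp3 had terms of the same sign in these fits, at -2.37 ± 0.15 in jLN and -1.89 ± 0.24 in mLN. Its part in the Tnfrsf4 values was not tested. In ileum 0 of 6 passed in edgeR and 0.0188% of all genes did, and 3 of 6 had an unadjusted p under 0.05, with Tnfrsf4 at -1.23 ± 0.24 and Tnfrsf9 at -1.23 ± 0.26. DESeq2 called both there, and edgeR with the replicate block called Tnfrsf4 with an adjusted p of 0.0493. In jLN the block added Tnfrsf25, at -0.56 with an adjusted p of 0.0114 (edgeR).

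Ligands of the 6 receptors were scarce in the sorted cells, apart from Tnfsf8, the ligand of Tnfrsf8. Tnfsf8 lay at 449.8 to 831 CPM in ileal Tconv and at 74.1 to 183 CPM in ileal Treg, a difference of -2.21 ± 0.21 with an adjusted p of 4.38e-05 (edgeR). Its ileal rise over mLN was 2.28 ± 0.13 on the log2 scale in Tconv. In mLN Tconv it also rose with the TNFdARE allele, from 89.5, 93.6 and 122 CPM to 152 and 196 CPM, a change of 0.76 ± 0.15 with an adjusted p of 0.0173. Receptor and ligand thus lay on opposite sides in the ileum, Tnfrsf8 higher in Treg and Tnfsf8 higher in Tconv.

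Tnfsf9, the ligand of Tnfrsf9, reached at most 56.2 CPM, and was 1.19 ± 0.20 higher in jLN Treg than in jLN Tconv and 2.41 ± 0.39 higher in synovial than in jLN Treg. Tnfsf4, the ligand of Tnfrsf4, reached 9.47 CPM in ileal Tconv and was 1.69 ± 0.27 higher there than in mLN Tconv. Tnfsf15, the ligand of Tnfrsf25, stayed at or under 5.25 CPM, Tnfsf18, the ligand of Tnfrsf18, at or under 4.56 CPM and Cd70, the ligand of Cd27, at or under 3.35 CPM. Antigen-presenting cells, which carry these ligands, were not analysed here. Folds of ligands with libraries at 0 are not given.

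Downstream of the receptors, 8 genes of TRAF and death domain adaptors were followed. Traf1, which is itself an NF-kB target and binds Tnfrsf9, had the receptors' pattern: it was higher in Treg than Tconv by 0.93 ± 0.16 in ileum, 1.08 ± 0.07 in mLN and 1.09 ± 0.07 in jLN, and higher in ileum than mLN by 1.80 ± 0.15 in Treg and 1.97 ± 0.13 in Tconv. Traf5 went the other way between tissue and node, at -1.04 ± 0.23 in synovial Treg and -1.02 ± 0.12 in synovial Tconv against jLN. The allele raised 1 of 8 in ileum in each cell type, Traf2, by 0.90 ± 0.09 in Treg and 0.44 ± 0.09 in Tconv. There 0.484% and 1.17% of all genes were called higher. In mLN Treg the allele lowered 1 of 8, Traf5, with a value of -0.37 ± 0.08, where 273 of 14820 genes fell. In edgeR 0 of 8 passed in the other 4 comparisons, where 0 to 3 had an unadjusted p under 0.05.

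Of 15 NF-kB pathway genes, the allele raised 5 in jLN Tconv, 2 in mLN Tconv, 4 in mLN Treg and 3 in jLN Treg, lowered 1 in jLN Treg, and passed for 0 in either cell type of the ileum and in synovial Treg, where 3 to 5 had an unadjusted p under 0.05 (edgeR). Of all genes, 2.29% were called higher in jLN Tconv, 1.79% in mLN Tconv and 3.84% in mLN Treg. In jLN Treg 494 of 14691 genes rose and 344 fell. The medians of the list lay between 0.09 and 0.37 on the log2 scale over the 7 comparisons, beside -0.02 to 0.12 for all genes. Nfkb2 and Relb, subunits of the alternative pathway, rose together in 3 of the 7 comparisons: Nfkb2 rose by 1.06 ± 0.08 in jLN Tconv, 0.76 ± 0.08 in jLN Treg and 0.93 ± 0.09 in mLN Treg, and Relb by 0.96 ± 0.11, 0.61 ± 0.11 and 0.92 ± 0.10 in the same groups. In mLN Tconv the 2 that rose were Birc3, by 0.47 ± 0.08, and Nfkb2, by 0.44 ± 0.09. Between ileum and mLN 12 of 15 rose in Treg and 13 in Tconv, where 17% and 34.3% of all genes were called higher. Between synovium and jLN 7 rose and 2 fell in each cell type, where 19.2% and 16.3% of all genes were called higher in Treg and Tconv. Tnfaip3, the feedback inhibitor of NF-kB, was higher in ileum by 4.28 ± 0.35 in Treg and 5.83 ± 0.11 in Tconv.

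Among 6 survival genes, Bcl2l1 was higher in tissue than node by 1.398 ± 0.16 in ileal Treg, 1.45 ± 0.15 in ileal Tconv, 1.09 ± 0.12 in synovial Treg and 2.60 ± 0.13 in synovial Tconv. Bcl2a1d was higher by 2.40 ± 0.21 in ileal Treg, 3.60 ± 0.14 in ileal Tconv and 3.25 ± 0.17 in synovial Tconv. Mcl1 went the other way in Treg, at -0.79 ± 0.09 in ileum and -0.87 ± 0.08 in synovium. Of all genes, 17% and 34.3% were called higher in ileal Treg and Tconv, and 19.2% and 16.3% in synovial Treg and Tconv. Called lower were 2042 of 16723 genes in ileal Treg and 3037 of 16378 in synovial Treg. Bcl2 was lower in synovial than in jLN Treg, at -3.59 ± 0.20. With the TNFdARE allele Bcl2a1d rose by 1.12 ± 0.26 in mLN Treg and 1.09 ± 0.20 in jLN Treg, and Bcl2a1b by 0.71 ± 0.17 in jLN Tconv. Bcl2 fell with the allele by 2.36 ± 0.29 in synovial Treg and by 0.61 ± 0.15 in mLN Treg, with adjusted p-values of 0.0484 and 0.0328 (edgeR). The Bcl2a1 genes are near-identical copies, so the division of reads among them is uncertain.

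Among 7 costimulatory molecules outside the TNF receptor family, 4 were higher and 2 lower in mLN Treg than mLN Tconv, 3 and 2 in jLN, 1 and 3 in ileum and 1 and 0 in synovium. Of all genes tested, 3089 of 14820 were higher and 2631 lower in mLN, and 3242 of 14691 and 3109 in jLN. In ileum these were 1262 of 15916 and 1091, and in synovium 171 of 17959 and 26. Icos and Slamf1 were higher in node Treg, by 1.83 ± 0.13 and 1.82 ± 0.09 in mLN and by 1.79 ± 0.07 and 1.89 ± 0.07 in jLN. Their gap between Treg and Tconv was smaller in the tissue, as that of Tnfrsf4 was, at -1.65 ± 0.16 and -1.58 ± 0.17 in the gut and -0.87 ± 0.13 and -1.69 ± 0.20 in the joint. Icos, of the CD28 family, was higher in tissue than node in both cell types, 2.83-fold in ileal Treg, 8.92-fold in ileal Tconv, 3.78-fold in synovial Treg and 6.77-fold in synovial Tconv. Cd40lg, itself a TNF family ligand, was lower in Treg than in Tconv, at -3.70 ± 0.22 in ileum, -3.07 ± 0.13 in mLN and -2.66 ± 0.09 in jLN. With the allele 1 of 7 rose in ileal Tconv, Icos by 0.50 ± 0.11, and 0 of 7 passed in mLN and jLN Tconv, where 1 and 4 had an unadjusted p under 0.05 (edgeR). In mLN Treg 2 rose and 1 fell, and in jLN Treg 2 fell, Cd40lg at -0.84 ± 0.13 and Cd28 at -0.46 ± 0.08. Of all genes, 1.17% rose in ileal Tconv and 3.84% in mLN Treg. In mLN Treg 273 of 14820 genes fell, and in jLN Treg 344 of 14691.

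Of 12 genes known to be induced when T cells are activated (Il2ra, also a Treg marker, among them), 7 were higher and 2 lower in ileal than mLN Treg, and 9 and 2 in Tconv. In the synovium against jLN, 8 were higher and 2 lower in Treg, and 9 and 0 in Tconv, with medians of 1.13 and 1.93 on the log2 scale beside -0.09 and -0.29 for all genes. Nr4a1, induced by signals of the T cell receptor, was higher by 3.82 ± 0.23 in synovial Treg and 4.13 ± 0.15 in synovial Tconv. Of those that fell, Il2ra was at -0.91 ± 0.09 in ileal Treg and Myc at -1.22 ± 0.08 in synovial Treg. Of all genes, 29.2% and 61% were called in ileal Treg and Tconv and 37.7% and 34.8% in the synovium. With the allele, Batf rose by 0.72 ± 0.12 in mLN Treg, 0.73 ± 0.10 in jLN Treg, 0.67 ± 0.12 in mLN Tconv and 0.47 ± 0.10 in jLN Tconv. Il2ra rose by 1.09 ± 0.22 in ileal, 0.91 ± 0.14 in mLN and 0.93 ± 0.10 in jLN Tconv but fell in jLN Treg, at -0.40 ± 0.08. Myc fell in mLN and synovial Treg, at -0.54 ± 0.14 and -1.56 ± 0.20, and Nfatc1 in ileal Treg, at -0.60 ± 0.11. None of the other list genes passed for the allele. Of all genes, 3.84% rose in mLN Treg, 1.17% in ileal Tconv, 1.79% in mLN Tconv and 2.29% in jLN Tconv. In jLN Treg 494 of 14691 genes rose and 344 fell. Falling genes were 273 of 14820 in mLN Treg, 8 of 17959 in synovial Treg and 39 of 15916 in ileal Treg.

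The genes whose group means ran closest to each receptor were found among 16110 named genes, by Pearson correlation of log2 CPM over the 16 groups. For Tnfrsf4 they were Lamc1 (0.99), Slc43a3 (0.98) and Ptpn13 (0.98), and for Tnfrsf9 Arl5a (0.97), N4bp1 (0.97) and Ggta1 (0.97). Slc43a3 was also among the closest to Tnfrsf18, with H2afz (0.98) and Cd80 (0.97), and to Tnfrsf8, with Rgs16 (0.98) and Csf1 (0.97). Tnfrsf25 ran closest to Nrp1 (0.91), a surface protein of thymus-derived Treg, Mcub (0.88) and Pglyrp1 (0.88). Cd27 ran closest to H2-Ob (0.95), Ifi209 (0.94) and BC046401 (0.93).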

How the data were processed

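RNA of sorted Treg and Tconv (RNeasy Micro, SMART-Seq v4 PLUS, single 100-base reads on a NovaSeq6000, per the labels' protocols) was measured in 42 libraries. The deposited table holds raw read counts per Ensembl gene. The submitters' processing notes name cutadapt 1.15 (a read trimmer), Bowtie2 2.3.3.1 (an aligner) and the build GRCm38. The counting program, strand setting and annotation release are not given in the sources used here. A second deposited table holds FPKM values of 18964 genes, made by the authors in a way not given in the sources used here, and it served only to check ranks. Symbols were taken from GENCODE M21 for 46091 of 46603 genes. Libraries were made from 100 pg or 2 ng of RNA, not told apart by sample in the sources used here.

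Library totals of 18261064 to 30301202 counts set the precision of the counts. Counts were tested with edgeR 4.0.16 (quasi-likelihood F test, TMM factors, filterByExpr by group, 1 mean per group, R 4.3.3, limma 3.58.1). P-values were adjusted by Benjamini-Hochberg over all genes tested, with a threshold of 0.05. Each fit held the groups of the sites compared, and SE is the log2 fold change divided by the root of F. The procedure was tested on simulated data. The rule for the 6 receptors uses no measured value, but it and all gene lists were chosen with earlier results of these data known. Named list genes are the 3 with the smallest p among those past the threshold in a comparison, and ligands are named in full. Alternatives were RLE factors, no filter, DESeq2 1.42.0, 1 fit of all 42 libraries, a sample-sheet number as covariate, the experiment as a block, and leaving out each library. WT groups alone (a contrast within the same fit, as for TNFdARE groups alone) and leaving out both experiment A ileal Treg libraries were added after seeing the data. Libraries with the same letter come from the same experiment by the labels. Each of 18 pairs set a TNFdARE library beside the WT library of the same cell type, site and letter. Their deviations from the group means correlated between -0.529 and 0.458, with a median of 0.0823, and 8 pairs exceeded 0.1. Pairing between Treg and Tconv, or between tissue and node, was not examined in this way.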

Additional observations from a re-analysis of the deposited data

Results flagged for a closer look

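The effect of the TNFdARE allele on Tnfrsf4 differed between Treg and Tconv in both nodes, by an interaction term (edgeR). It was smaller in Treg by a log2 difference of -0.943 in mLN and -1.351 in jLN, with adjusted p-values of 0.0344 and 0.000256. The mLN call was lost in most fits that left out 1 library, with adjusted p-values of 0.0509 to 0.118 (edgeR). Foxp3 had terms of the same sign, at -1.89 ± 0.24 in mLN and -2.37 ± 0.15 in jLN. Its part in the Tnfrsf4 values was not tested.

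The gap between Treg and Tconv differed between ileum and mLN for Tnfrsf4 (log2 difference -1.370), Tnfrsf8 (-1.746) and Cd27 (0.685). It differed between synovium and jLN for Tnfrsf4 (-1.738), Tnfrsf18 (-0.997) and Tnfrsf25 (-0.891). The negative values mean a smaller gap in the tissue, and the gap of Cd27 was larger there. The joint values rest on 1 WT synovial Tconv library and on TNFdARE synovial Tconv libraries that hold 44.1% of the Treg level of Foxp3.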

How the results depend on the processing

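Of 1950 receptor values under other settings, 1796 kept their side of the threshold, 51 of them with a changed sign while not called, 108 fell below it, 44 rose past it and 2 reversed. The reversals both concern Tnfrsf9 in the joint: synovial against jLN Tconv was -0.117 with WT groups alone, and the difference of the Treg to Tconv gap between synovium and jLN was -1.499 with TNFdARE groups alone.

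Counts of receptors past the test that differed by more than 1.5 times, or went to or from 0, were as follows. A single fit of all 42 libraries gave 3 in ileal Treg, 0 in mLN Treg, 4 in synovial Treg and 1 in jLN Treg for the allele, and 2 in ileum and 0 in mLN for the interaction of allele and cell type. The experiment as a replicate block gave 2 in ileal Treg and 0 in synovial Treg for the allele, 2 for synovial Treg against Tconv, and 1 in ileum and 2 in jLN for the interaction. Beyond the calls given with the results, the block changed no other call. DESeq2 gave 4 in ileal Treg, 3 in mLN Tconv, 2 in synovial Treg, and 2 in ileum and 2 in jLN for the interaction. No filter gave 2 in mLN Tconv and 2 in jLN for the interaction. The sample-sheet covariate gave 0 in synovial Treg for the allele and 2 for synovial Treg against Tconv. Leaving out both experiment A libraries gave 0 in ileal Treg. For synovial Treg against Tconv, WT groups alone gave 2 and TNFdARE groups alone 0, and for the joint difference of the gap TNFdARE groups alone gave 5. Leaving out 1 library gave 0 to 3 in ileal Treg, 0 to 1 in mLN Treg, 0 to 1 in synovial Treg and 0 to 3 in jLN Treg for the allele, 2 to 4 for synovial Treg against Tconv, and 0 to 3 in ileum and 0 to 1 in mLN for the interaction. The cause was not tested. Depth limits Tnfrsf8 in WT jLN Tconv, with 2 to 25 reads per library.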
